A study of Homo sapiens with 6 samples.

Results

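A set of 8 genes that move salt across the airway epithelium, other than CFTR itself, were followed through the peak lists: SCNN1A, SCNN1B, SCNN1G, ANO1, SLC26A9, SLC26A4, SLC12A2 and SLC9A3. A peak belonged to a gene when its summit, the base of highest signal, lay within 250 kb of a fixed hg19 position that marks the gene's start to the nearest kb. By this rule 91 of the 35687 peaks in 3 lists were members: 20 of 9769 BRD8 peaks in Calu3, 26 of 9505 BRD8 peaks in 16HBE14o- and 45 of 16413 CTCF peaks in Calu3. The windows of SCNN1B and SCNN1G overlap, and a peak in both was counted once in these totals. The rule used positions only and no signal.

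The lists come from chromatin immunoprecipitation and sequencing (ChIP-seq) of untreated cells, with 2 replicates of each of 3 experiments, 6 samples in all. BRD8 was mapped with the same antibody in Calu3, a human lung adenocarcinoma line, and in 16HBE14o-, a human bronchial epithelial line, and CTCF in Calu3 alone. All cells were grown in the same serum-supplemented medium. Throughout, a 16HBE14o- BRD8 peak with or without CTCF is one with or without a Calu3 CTCF peak. Whether CTCF is bound there in 16HBE14o- is not known. Each list is a single set of peaks that the authors made from 2 replicates with the irreproducible discovery rate, so there was no spread between replicates to test against, and the intervals given are exact Clopper-Pearson intervals at 95% that cover counting error only. Sequencing depth was not given in the sources used here, and a region with no listed peak is not shown to lack the protein. Gene expression was not measured, and a peak near a gene is not shown to act on it.

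Airway surface liquid is set by the balance of sodium uptake and chloride and bicarbonate secretion. Sodium enters the cell through ENaC, a channel built from alpha, beta and gamma subunits encoded by SCNN1A, SCNN1B and SCNN1G, and through the sodium-hydrogen exchanger encoded by SLC9A3. Chloride leaves through apical channels that include the calcium-activated channel ANO1 and SLC26A9, a chloride transporter of the SLC26 family, while SLC26A4 (pendrin) exchanges chloride for bicarbonate. SLC12A2 encodes the basolateral sodium-potassium-chloride cotransporter that loads the cell with chloride. BRD8 is a bromodomain protein of the NuA4/TIP60 acetyltransferase complex, and CTCF marks insulators and the anchors of chromatin loops.

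Of the 8 gene starts, BRD8 was listed at that of SCNN1G alone, and there it was listed in both lines together with CTCF. The 3 summits lay 136 bp (Calu3 BRD8), 157 bp (16HBE14o- BRD8) and 141 bp (CTCF) below the position of SCNN1G on chromosome 16 (23.194 Mb), in the direction of lower coordinates. That position is given to the nearest kb, so these are not distances to the start itself. The Calu3 BRD8 peak (hg19 chr16:23193724-23193967) had the authors' signal of 102.4 and ranked 287 of 9769, at percentile 97.1, where 100 is the strongest peak of that list. The 16HBE14o- BRD8 peak (chr16:23193732-23193955) had a signal of 58.3 and ranked 382 of 9505, at percentile 96.0. The CTCF peak (chr16:23193728-23194026) had a signal of 252.6 and ranked 231 of 16413, at percentile 98.6. All 3 peaks were therefore in the strongest 10% of their lists. In the strongest 10% of the Calu3 BRD8 list, 80.7% of peaks met 16HBE14o- BRD8 and 93.6% met CTCF. For 16HBE14o- BRD8 the shares were 73.3% with Calu3 BRD8 and 92.4% with Calu3 CTCF. Meeting the other lists was thus usual at this rank and is not particular to SCNN1G. Signals of different lists may not share a scale and were not compared.

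CTCF was listed within 5 kb of 5 of the 8 gene positions, and at 4 of these no BRD8 peak of either line lay within 5 kb. How often other gene starts hold CTCF or BRD8 within 5 kb was not counted. The counts at starts are therefore not shown to be particular to these genes. Positions are given to the nearest kb, so distances under a kb are not distances to the start itself. At SCNN1A (chromosome 12, 6.486 Mb), the alpha subunit of ENaC, the CTCF summit lay 68 bp from the position (chr12:6485788-6486077), with a signal of 31.7 at percentile 45.0. At SLC12A2 (chromosome 5, 127.419 Mb) it lay 691 bp away (chr5:127419652-127419769, signal 72.2, percentile 74.6). At ANO1 (chromosome 11, 69.924 Mb) it lay 675 bp away (chr11:69924628-69924712, signal 66.8, percentile 73.1). The weakest of these stood at SLC26A4 (chromosome 7, 107.301 Mb), 1.29 kb away (chr7:107302148-107302437, signal 18.6, percentile 8.76). SCNN1B, SLC26A9 and SLC9A3 had no peak of any list within 5 kb. Their nearest summits of any list were 119.1 kb (SCNN1B), 23.7 kb (SLC26A9) and 50.7 kb (SLC9A3) away. In the strongest 50% of each list, the CTCF peak at SCNN1A was gone and the nearest CTCF summit lay 88.9 kb away, for SLC26A4 it lay 1000.05 kb away and for SLC9A3 92.7 kb away.

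**Figure D1:**
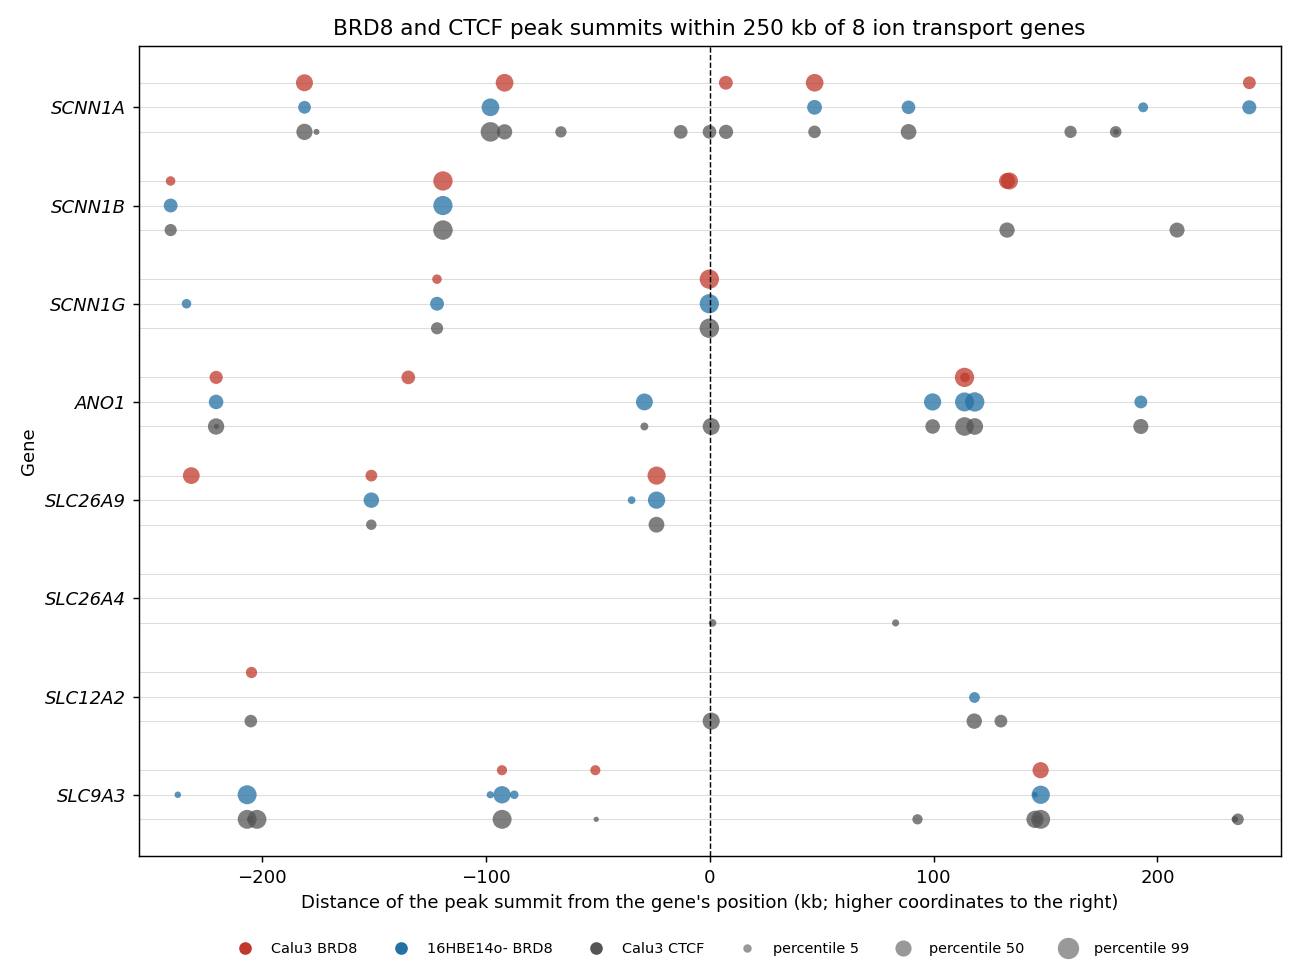
Summits of the member peaks by distance from each gene's position in kb (x axis, higher coordinates to the right), with a line for each list under each gene and point area growing with the percentile of the authors' signal in its own list. The dashed line is the gene's position. A BRD8 point lies on it at SCNN1G only, while CTCF points lie on or beside it at SCNN1A, SCNN1G, ANO1, SLC26A4 and SLC12A2.

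The RefSeq promoter table (GRCh38.p14), which gives 250 bases before and 50 bases after a gene's start, held 6 of the 8 genes: SCNN1B, ANO1, SLC26A9, SLC26A4, SLC12A2 and SLC9A3. The letters searched were the core of the CTCF consensus, AGGGGGC or AGGTGGC or AGAGGGC or AGATGGC, on both strands, and matches are in capitals. No other motif was searched. They occur in 30.5% of the 35116 promoters of the table. The promoters of 4 genes are printed. SLC12A2 and SLC26A4 had a CTCF peak within 5 kb of the position, and SLC9A3 and SCNN1B hold the core but had no peak of any list within 5 kb.
SLC12A2 (chr5:128083516-128083815, plus strand): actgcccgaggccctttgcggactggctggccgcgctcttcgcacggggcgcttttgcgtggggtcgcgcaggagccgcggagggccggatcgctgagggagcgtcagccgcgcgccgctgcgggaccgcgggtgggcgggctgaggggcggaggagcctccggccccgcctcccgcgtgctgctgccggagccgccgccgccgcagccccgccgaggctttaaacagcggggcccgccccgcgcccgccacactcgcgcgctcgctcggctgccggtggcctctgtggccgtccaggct
SLC26A4 (chr7:107660578-107660877, plus strand): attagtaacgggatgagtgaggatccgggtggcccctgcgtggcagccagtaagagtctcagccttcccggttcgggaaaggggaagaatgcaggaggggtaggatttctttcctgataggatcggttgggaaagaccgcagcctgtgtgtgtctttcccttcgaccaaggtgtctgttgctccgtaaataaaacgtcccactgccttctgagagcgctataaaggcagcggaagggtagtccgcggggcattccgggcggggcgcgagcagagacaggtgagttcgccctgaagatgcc
SLC9A3 (chr5:524400-524699, minus strand): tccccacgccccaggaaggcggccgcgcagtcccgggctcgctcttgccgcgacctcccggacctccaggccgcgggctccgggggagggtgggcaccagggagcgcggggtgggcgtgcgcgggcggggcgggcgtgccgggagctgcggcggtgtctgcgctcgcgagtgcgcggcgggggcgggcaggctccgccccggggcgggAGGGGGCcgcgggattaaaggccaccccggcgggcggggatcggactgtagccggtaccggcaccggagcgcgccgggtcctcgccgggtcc
SCNN1B (chr16:23302052-23302351, plus strand): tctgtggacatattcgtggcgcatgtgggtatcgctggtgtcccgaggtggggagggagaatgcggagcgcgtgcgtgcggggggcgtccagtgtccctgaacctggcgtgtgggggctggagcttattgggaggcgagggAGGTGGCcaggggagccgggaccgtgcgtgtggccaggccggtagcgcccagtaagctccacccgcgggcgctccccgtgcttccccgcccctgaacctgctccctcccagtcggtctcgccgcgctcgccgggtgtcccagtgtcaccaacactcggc
The core was found once in SLC9A3 (AGGGGGC) and once in SCNN1B (AGGTGGC), and in none of SLC12A2, SLC26A4 and SLC26A9. Thus 2 of the 6 promoters held it, a share near the 30.5% of the table, and a link between core and peaks was not tested. The start of ANO1 in the table may be that of another transcript than the position used here, and its promoter was not described further. The promoter of SLC12A2 was 78.7% G and C, above 96.0% of the promoters in the table, and that of SLC9A3 81.3%, above 98.4%. Those of SLC26A4 (57.7%) and SLC26A9 (51.7%) lay below the table's median of 58.7%. The sequences are on another build than the peaks, so no peak can be placed on them, and no sequence under a peak was read.

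Across the 500 kb windows the genes differed widely in how many peaks they held. SCNN1A had the most BRD8 peaks in Calu3, 5, with 6 in 16HBE14o- and 13 CTCF peaks. SLC9A3 had 3, 7 and 12 in the same order, and ANO1 4, 6 and 8. Fewer stood near SCNN1B (4, 2 and 4), SCNN1G (2, 3 and 2) and SLC26A9 (3, 3 and 2). SLC12A2 had 1 BRD8 peak in each line and 4 CTCF peaks, and SLC26A4 had no BRD8 peak in either line and 2 CTCF peaks. Thus 7 of the 8 genes had BRD8 within 250 kb in each line, and all 8 had CTCF. The windows of SCNN1B and SCNN1G overlap, so some peaks count for both genes here.

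For a background, the genome was divided into 6064 tiles of 500 kb. At least 1 Calu3 BRD8 peak lay in 44.6% of tiles, at least 1 16HBE14o- BRD8 peak in 51.2% and at least 1 CTCF peak in 63.1%. The tiles had medians of 0, 1 and 1 peaks, and the 8 windows medians of 3, 3 and 4. Peaks in the windows of both SCNN1B and SCNN1G enter the window medians for each gene. Tiles cover gene-poor sequence and the windows are centred on genes, so the tiles do not stand for other gene windows, and genes of the same kind were not compared with other genes because no hg19 annotation was used here. For SCNN1A, 2.79% of tiles held more CTCF peaks and 8.64% more Calu3 BRD8 peaks. For SLC9A3, 3.30% of tiles held more CTCF peaks and 3.76% more 16HBE14o- BRD8 peaks. SLC26A4 shared its lack of BRD8 with 55.4% of tiles in Calu3 and 48.8% in 16HBE14o-.

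**Figure D2:**
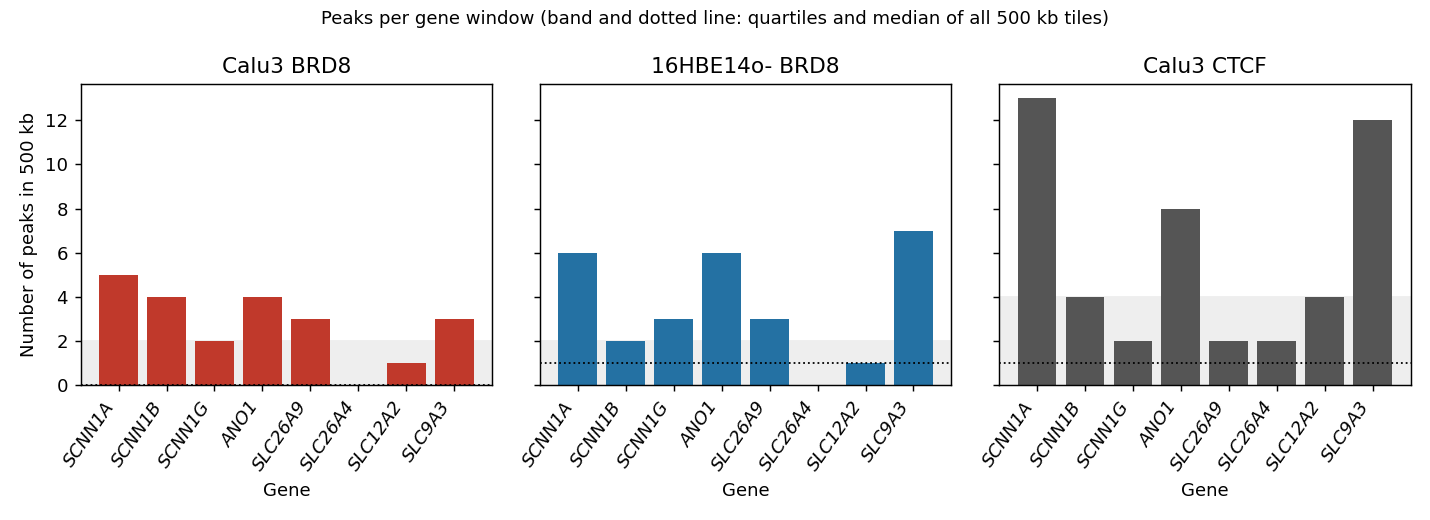
Number of peaks with a summit within 250 kb of each gene (y axis), with a panel for each list. The grey band and dotted line are the quartiles and the median over 6064 tiles of the genome. SCNN1A, ANO1 and SLC9A3 rise above the band in all 3 panels, and SLC26A4 stays at 0 for BRD8 in both lines.

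Merged where they overlapped, the member peaks formed 53 sites, of which 34 held BRD8 (64.2%, 95% interval 49.8 to 76.9%) and 42 held CTCF (79.2%, 65.9 to 89.2%). Over all 21110 merged sites the shares were 64.2% and 75.8%. BRD8 and CTCF met at 23 sites (43.4%, 29.8 to 57.7%), against 39.9% of all sites. These shares were near those of all sites. All 3 lists were present at 10 of the 53 sites (18.9%, 95% interval 9.44 to 32.0%), against 16.8% of all merged sites. These 10 sites lay near 6 of the genes, with 2 sites in the window of each, where the windows of SCNN1B and SCNN1G shared the same 2. SLC26A4 and SLC12A2 had none. Sites of CTCF alone made up 35.8% near the genes and 35.8% of all sites.

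**Figure D3:**
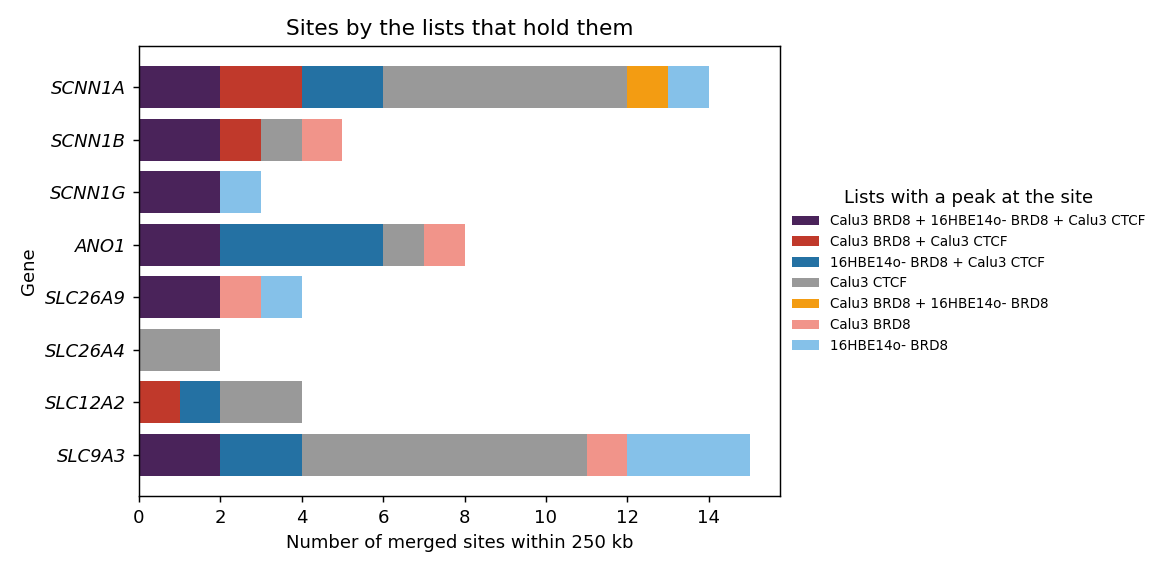
Merged sites within 250 kb of each gene (x axis, number of sites), coloured by the lists that had a peak there. Dark purple, the sites of all 3 lists, has a length of 2 for 6 genes and is absent for SLC26A4 and SLC12A2; grey, CTCF alone, is longest for SLC9A3 (7 sites) and SCNN1A (6 sites).

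The shares of member peaks that met another list stood close to those of the whole lists. In Calu3, 12 of 20 member BRD8 peaks overlapped a 16HBE14o- BRD8 peak by at least 1 bp (60.0%, interval 36.1 to 80.9%), against 50.1% of the list. From the 16HBE14o- side it was 11 of 26 (42.3%, 23.4 to 63.1%) against 43.4%. A CTCF peak was overlapped by 15 of 20 Calu3 BRD8 peaks (75.0%, 50.9 to 91.3%, list 70.5%) and by 19 of 26 16HBE14o- BRD8 peaks (73.1%, 52.2 to 88.4%, list 65.3%). Of the 45 CTCF peaks, 15 met Calu3 BRD8 (33.3%, 20.0 to 49.0%, list 36.1%) and 20 met 16HBE14o- BRD8 (44.4%, 29.6 to 60.0%, list 38.0%). Either line's BRD8 was met by 24 of them (53.3%, 37.9 to 68.3%, list 52.3%). Each of these 7 intervals contained the value of the whole list, so a difference of the ion transport genes from the lists was not detectable with these numbers of peaks. With a radius of 500 kb, 44 of 51 Calu3 BRD8 peaks met CTCF (86.3%, interval 73.7 to 94.3%), and this interval lay above the 70.5% of the list. No other interval of these shares, under any setting, left out the value of its list. The intervals count neighbouring peaks of a window as independent, so this one does not establish a difference. With a reciprocal overlap of at least 50%, 2 of 20 Calu3 BRD8 peaks and 2 of 26 16HBE14o- peaks met the other line's BRD8. Usual widths are 476 bp in Calu3 and 224 bp in 16HBE14o-, so a usual 16HBE14o- peak covers at most 47.1% of a usual Calu3 peak, and a pair of usual widths cannot meet that criterion wherever it lies.

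Among the sodium channel genes, SCNN1G and SCNN1B are neighbours and SCNN1A stands apart on chromosome 12. Beyond the peak at the start of SCNN1G, no summit of any list was found for 252.0 kb, a stretch that spans the position of SCNN1B (23.313 Mb). Between Calu3 BRD8 summits alone, intervals at least as long made up 84.5% of the length between the first and last on the chromosomes. Stretches free of all 3 lists were not counted over the genome, so how common this one is was not shown. The stretch had Calu3 BRD8 at both ends. Its upper end was a Calu3 BRD8 peak with CTCF (chr16:23445599-23446074, signal 38.0, percentile 64.1), followed by a stronger Calu3 BRD8 peak without CTCF (chr16:23446686-23447161, signal 43.1, percentile 73.3). In 16HBE14o- neither was listed, and the nearest BRD8 summit of that line was 160.8 kb from the latter. On the other side of SCNN1G, 121.8 kb below its position, a site held all 3 lists: Calu3 BRD8 (chr16:23071955-23072430, percentile 18.0), 16HBE14o- BRD8 (percentile 46.5) and CTCF (percentile 34.0). A 16HBE14o- BRD8 peak alone lay further out (chr16:22960192-22960415, percentile 18.2), and CTCF alone stood 208.8 kb above SCNN1B (chr16:23521641-23521930, percentile 55.7).

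SCNN1A carried more sites than its partner genes, and the strongest of them was CTCF 97.9 kb below its position (chr12:6387938-6388199, signal 274.3, rank 126, percentile 99.2). BRD8 was listed there in 16HBE14o- (chr12:6387960-6388183, signal 39.5, percentile 80.4) and not in Calu3. The reverse stood 6.32 kb away: a Calu3 BRD8 peak on a moderate CTCF peak (chr12:6394156-6394631, signal 48.6, percentile 80.2; CTCF percentile 58.2) with none in 16HBE14o-. Neighbouring Calu3 CTCF peaks thus met BRD8 peaks of different lines. The BRD8 summit nearest the position of SCNN1A was a Calu3 peak 7.23 kb above it (chr12:6492996-6493471, signal 30.8, percentile 46.1), also with CTCF. It was not among the strongest 50% of its list, where the nearest Calu3 BRD8 summit lay 46.9 kb away. In 16HBE14o- the nearest was 46.9 kb above it, at a site of all 3 lists (Calu3 BRD8 chr12:6532662-6533137, percentile 79.5; 16HBE14o- BRD8 percentile 53.9; CTCF percentile 36.8). At the other site of all 3 lists, 181.0 kb below the position (chr12:6304755-6305230), the percentiles were 73.3 for Calu3 BRD8, 38.1 for 16HBE14o- BRD8 and 66.4 for CTCF. The one site near these genes with BRD8 in both lines and no CTCF lay 241.1 kb above SCNN1A (chr12:6726857-6727332, percentiles 38.5 in Calu3 and 48.2 in 16HBE14o-). A further 16HBE14o- BRD8 peak met CTCF 88.8 kb above SCNN1A (chr12:6574710-6574933, percentile 44.4), and another stood without CTCF at 193.7 kb (percentile 20.1). CTCF alone held 6 of the 14 sites, at percentiles up to 45.3.

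Around ANO1 the 16HBE14o- list was the fuller one. A cluster above the gene's position began 99.6 kb away with a 16HBE14o- BRD8 peak on CTCF (chr11:70023479-70023702, signal 37.1, percentile 75.4). At 113.8 kb all 3 lists met: Calu3 BRD8 (chr11:70037742-70037918, signal 94.0, rank 336, percentile 96.6), 16HBE14o- BRD8 (chr11:70037741-70037964, signal 52.7, percentile 93.6) and CTCF (signal 151.6, percentile 88.9). A second, weaker Calu3 BRD8 peak overlapped it (chr11:70037802-70038277, percentile 18.5). At 118.4 kb stood the strongest 16HBE14o- BRD8 peak near any of the 8 genes (chr11:70042292-70042515, signal 63.5, rank 275, percentile 97.1), on a CTCF peak of percentile 70.5. Calu3 had no BRD8 peak there, its nearest summit being 4.36 kb away. In the strongest 10% of the 16HBE14o- list 73.3% of peaks were shared with Calu3, and of the 4 such peaks near these genes 2 were. The other unshared peak of the 4 is described under SLC9A3.

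Further from the cluster, BRD8 and CTCF near ANO1 were sparser. A 16HBE14o- BRD8 peak 29.1 kb below the position (chr11:69894741-69894964, signal 35.8, percentile 72.2) lay on a weak CTCF peak (percentile 10.4), and 1 at 192.6 kb above it (percentile 39.2) on CTCF of percentile 56.1. The second site of all 3 lists was 220.5 kb below the position (chr11:69703310-69703785), with percentiles of 41.0 for Calu3 BRD8, 51.8 for 16HBE14o- BRD8 and 67.3 for the stronger of 2 CTCF peaks. Calu3 BRD8 without CTCF or 16HBE14o- BRD8 was listed 134.6 kb below ANO1 (chr11:69789140-69789615, signal 30.4, percentile 45.0).

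Both SLC26 transporters had 2 CTCF peaks, while BRD8 had 3 peaks in each line near SLC26A9 and none near SLC26A4. SLC26A9 (chromosome 1, 205.912 Mb) had a BRD8 site of both lines with CTCF 23.7 kb below its position: Calu3 BRD8 (chr1:205888061-205888536, signal 53.7, percentile 84.7), 16HBE14o- BRD8 (chr1:205888168-205888391, signal 37.5, percentile 76.2) and CTCF (percentile 62.5). Because the gene is on the minus strand in RefSeq, lower coordinates are the direction in which it is transcribed. A second site of all 3 lists stood 151.1 kb below it (chr1:205760644-205761119), at percentiles of 31.4, 59.4 and 23.3 in the same order. BRD8 without CTCF was listed in Calu3 at 231.6 kb (chr1:205680202-205680677, percentile 71.1) and in 16HBE14o- at 34.9 kb (chr1:205877030-205877253, percentile 9.37). No summit of any list was found above the position of SLC26A9 for 311.6 kb. Gaps in the hg19 assembly were not looked up, so how much of this stretch could hold a peak is unknown. It covers the upper side of the gene's window and thus bears on the counts there.

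The 2 CTCF peaks of SLC26A4 were both weak, at percentiles 8.76 and 6.65 (chr7:107383920-107384209, 83.1 kb above the position). The nearest BRD8 summits were 453.7 kb away in 16HBE14o- (signal 18.3, percentile 2.19) and 1000.2 kb away in Calu3 (signal 10.1, percentile 4.68). In the strongest 50% of the 16HBE14o- list the nearest was 1000.3 kb away. The difference between SLC26A4 and SLC26A9 was not tested, since each gene gives a single count in each list.

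Near SLC12A2 the CTCF peak beside the start was the strongest of 4. BRD8 was weak on both sides and in a different place in each line: in Calu3 204.8 kb below the position (chr5:127213974-127214449, signal 25.5, percentile 28.3) and in 16HBE14o- 118.2 kb above it (chr5:127537121-127537344, signal 24.3, percentile 25.4). Each of these lay on a CTCF peak, of percentiles 37.0 and 58.9. In the strongest 50% of the lists the nearest BRD8 summit to SLC12A2 was 590.3 kb away in Calu3 and 1427 kb away in 16HBE14o-.

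SLC9A3 (chromosome 5, 0.524 Mb) had 15 sites, the most of the 8 genes, and 4 of the 6 CTCF peaks in the strongest 10% of that list that lay near these genes. Those 4 had almost the same signal. At 92.7 kb below the position CTCF had a signal of 181.5 (chr5:431172-431384, percentile 93.0), and at 206.6 kb 176.3 (chr5:317296-317522, percentile 92.5). The CTCF peak 202.2 kb below it (chr5:321655-321903) had 176.1, and that 147.9 kb above it (chr5:671787-671991) 176.1. BRD8 differed between these sites. All 3 lists met at 92.8 kb below, with BRD8 at percentile 21.6 in Calu3 (chr5:430996-431471, signal 23.4) and 76.8 in 16HBE14o- (chr5:431131-431354, signal 37.8). They also met at 147.8 kb above, with percentiles of 66.0 in Calu3 (chr5:671612-672087, signal 38.9) and 85.6 in 16HBE14o- (signal 43.0). At 206.6 kb below, BRD8 was listed in 16HBE14o- alone (chr5:317280-317503, signal 52.0, percentile 93.3), with the nearest Calu3 BRD8 summit 113.8 kb away. The CTCF peak at 202.2 kb had no BRD8 in either line.

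The rest of the BRD8 near SLC9A3 was weak. In 16HBE14o- 3 peaks without CTCF had percentiles of 4.69, 7.45 and 13.4 (237.6, 98.0 and 87.3 kb below the position), and 1 on CTCF had 1.33 (145.3 kb above it). In Calu3 a BRD8 peak of percentile 21.1 lay 51.1 kb below the position (chr5:472706-473181); it ended just short of the weakest CTCF peak near these genes (chr5:473184-473473, signal 6.23, percentile 0.402) and did not overlap it. In the strongest 50% of the Calu3 list the nearest BRD8 summit to SLC9A3 lay 147.8 kb away.

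BRD8 was listed in both lines at 11 of the 53 sites (20.8%, interval 10.8 to 34.1%), against 19.4% of all merged sites, and its rank within each list was often unlike. The percentile was higher in Calu3 at 5 and higher in 16HBE14o- at 6, while over all 4117 shared pairs of the lists it was higher in Calu3 at 2316 (56.3%). The median difference, Calu3 minus 16HBE14o-, was -9.66 points over the 11 pairs and 3.57 points over all pairs. It was nearly equal at the start of SCNN1G (97.1 and 96.0) and 113.8 kb above ANO1 (96.6 and 93.6), where BRD8 was strong in both lines. The widest difference was 92.8 kb below SLC9A3, where Calu3 was lower by 55.2 percentile points. Both sites of all 3 lists near SLC9A3 ranked higher in 16HBE14o-, and both near SCNN1A ranked higher in Calu3. The third site of both lines near SCNN1A, 241.1 kb above it and without CTCF, went the other way, with percentiles of 38.5 in Calu3 and 48.2 in 16HBE14o-. The median absolute difference was 19.7 points over the 11 pairs and 20.5 points over all shared pairs, so a difference of this size was common. Replicate values were not available to say which exceed the error of a rank, and copy number, which can raise or lower signal over a region, was not measured.

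**Figure D4:**
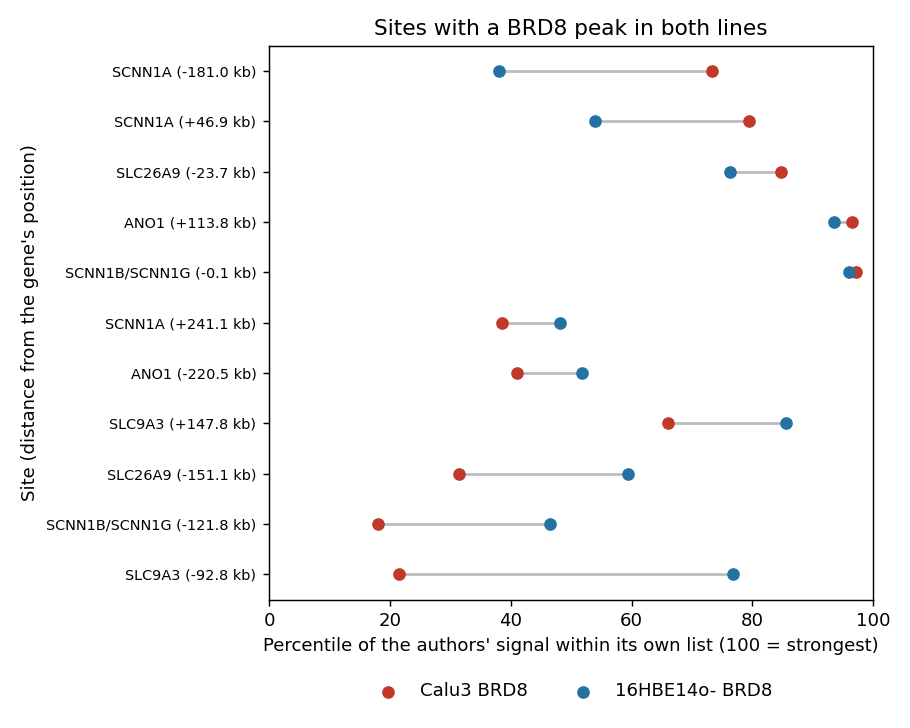
Percentile of BRD8 signal within its own list (x axis) in Calu3 (red) and 16HBE14o- (blue) at the 11 sites near the genes called in both lines, each labelled with its distance from the gene's position in kb. Points nearly coincide at SCNN1G and 113.8 kb above ANO1 and stand furthest apart 92.8 kb below SLC9A3.

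BRD8 was listed in Calu3 alone at 8 of the 53 sites (15.1%, interval 6.75 to 27.6%, all sites 19.3%) and in 16HBE14o- alone at 15 (28.3%, 16.8 to 42.3%, all sites 25.4%). Both intervals contained the value of all sites. The 8 Calu3 peaks without 16HBE14o- BRD8 ranged from percentile 21.1 to 80.2 with a median of 55.1, against a median of 39.7 for all 4879 such peaks of the list. The 12 Calu3 peaks with it had a median of 53.5, against 61.8 in the list. In 16HBE14o- the 15 unshared peaks ranged from 1.33 to 97.1 with a median of 25.4 and the 11 shared from 38.1 to 96.0 with a median of 59.4; the list medians were 39.3 and 64.7. BRD8 without CTCF made up 11 sites (20.8%, all sites 24.2%). It was mostly of low rank in 16HBE14o-, where the 7 peaks had a median percentile of 13.4 against 72.2 for the 19 with Calu3 CTCF (list medians 31.5 and 60.5). CTCF was not mapped in 16HBE14o-, so its presence at these peaks in that line is unknown. In Calu3 the medians were 45.0 for 5 peaks and 64.1 for 15 (list medians 33.3 and 58.7). CTCF peaks near the genes with BRD8 in either line had a median percentile of 60.1 (24 peaks) and those without 28.4 (21 peaks), with list medians of 64.7 and 34.1.

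Where BRD8 and CTCF overlapped near these genes, their summits lay close together. The median distance was 34 bp over 15 Calu3 BRD8 peaks, from 1 to 204 bp, and 37 bp over the whole list. For 16HBE14o- BRD8, set against the CTCF of Calu3, it was 16 bp over 19 peaks, from 2 to 48 bp, and 19 bp over the list. The usual peak is wider in the Calu3 list, which allows overlaps with summits further apart.

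The 250 kb limit fell near several peaks. The outermost Calu3 BRD8 member lay 241.1 kb from SCNN1A (percentile 38.5), and the nearest outside its gene's window was 251.8 kb from SCNN1G (percentile 64.1), a peak that the window of SCNN1B included. For 16HBE14o- BRD8 the values were 241.1 kb from SCNN1A (percentile 48.2) and 270.6 kb from SLC26A9 (percentile 28.0), and for CTCF 240.8 kb from SCNN1B (percentile 34.0) and 251.8 kb from SCNN1G (percentile 57.8).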

How the data were processed

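ChIP-seq peaks were analysed for BRD8 in Calu3, BRD8 in 16HBE14o- and CTCF in Calu3. The deposited lists are narrowPeak files on hg19, per the file headers, and the authors made each from 2 replicates, per the series' design text. The aligner, peak caller and control library are not given in the sources used here. Used from the deposited columns were the authors' signal, by which peaks were ranked, a score in the q-value column, and, as another kind of number, the offset that places each summit.

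The genes and comparisons were chosen with earlier results of these data known. Named for each gene were its nearest and strongest peaks, sites of all 3 lists and BRD8 peaks without CTCF. No test was made, since each experiment is 1 pooled list. The planned list of other ion transport genes needed an hg19 annotation and was not analysed here. Lengths of hg19 chromosomes came from pyranges 0.1.4. Python 3.11.15, numpy 2.4.6, pandas 2.3.3, scipy 1.17.1 and matplotlib 3.10.9 were used, and the overlap code was tested on simulated data. Alternatives covered window radius, overlap rule, peak width, merging and the strongest 50% of each list.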

Additional observations from a re-analysis of the deposited data

How the results depend on the processing

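The 7 shares of member peaks that met another list stayed within their 95% intervals under 7 alternatives (for the shares of CTCF peaks that met BRD8 of 1 line these were added after seeing the data), except that a reciprocal overlap of at least 50% lowered sharing between the BRD8 lists to 10.0% of Calu3 members and 7.69% of 16HBE14o- members (whole lists 4.37% and 4.44%); pairs of the usual 476 and 224 bp cannot pass that rule. With a radius of 500 kb the Calu3 BRD8 share that met CTCF was 86.3%, and its interval (73.7 to 94.3%) left out the list's 70.5%. It was the only interval of these shares to do so, and it counts neighbouring peaks as independent. The numbers of member peaks follow from the window and the list: with a radius of 100 kb they were 7 (Calu3 BRD8), 11 (16HBE14o- BRD8) and 19 (CTCF), with 500 kb 51, 60 and 108, and in the strongest 50% of each list 10, 13 and 21. Merging overlapping peaks gave 19, 26 and 42. Ranked by the score in the q-value column, the strongest CTCF peaks of SCNN1A, SCNN1B, SCNN1G and SLC9A3 took percentile 60.5, a value shared by tied peaks. Those of ANO1, SLC26A9 and SLC12A2 took the same value. Strongest BRD8 peaks of several genes were likewise tied, at 83.8 in Calu3 and 88.8 in 16HBE14o-. The other 18 percentiles stayed within 1.5 times. That score does not tell tied peaks apart, so this ranking is no check of their order by signal. In the strongest 50% of each list, 8 of the distances to a nearest summit grew by over 1.5 times and 16 did not.

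No paired analysis was possible because each list pools its 2 replicates and holds no value for a single replicate, and leaving out a replicate was not possible for the same reason. Depth was unknown, which limits what a missing peak shows.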

Other observations

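The stretch around SLC26A4 without Calu3 BRD8 was the longest of the 8 genes. Calu3 BRD8 summits on chromosome 7 were 6.21 Mb apart on either side of the gene, and intervals at least as long made up 18.0% of the length between the first and last Calu3 BRD8 summits of the chromosomes, centromeres and gaps included. The stretch was not empty in the other lists: it held 7 16HBE14o- BRD8 peaks with a median percentile of 22.8 and a highest of 80.9, and 11 Calu3 CTCF peaks with a median percentile of 17.8 and a highest of 65.8. The interval around SLC12A2 came next, at 1.89 Mb, with 3 16HBE14o- BRD8 and 10 CTCF peaks, and intervals at least as long made up 47.6% of that length. Around the other 6 genes the interval was at most 0.346 Mb (SLC26A9), and intervals at least that long made up 79.6% of the length. The interval at SLC26A4 was picked after its length was seen, and its cause was not tested.

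In the CTCF and Calu3 BRD8 lists, peaks narrower or wider than the usual width ranked higher than those of usual width. Of 16413 CTCF peaks, 74.1% had the usual width of 290 bp and a median percentile of 37.1, while the 25.1% that were narrower had a median of 86.6 and the 135 wider ones (0.823%) one of 98.6. Near the genes, the 8 narrower CTCF peaks had percentiles from 73.1 to 99.2 and the 36 of usual width from 0.402 to 76.6. The narrow ones include the peaks beside the starts of ANO1 (85 bp) and SLC12A2 (118 bp), and the 1 wider peak is that at the start of SCNN1G (299 bp, percentile 98.6). In the Calu3 BRD8 list the 2 narrower members, at the start of SCNN1G (244 bp) and 113.8 kb above ANO1 (177 bp), had percentiles of 97.1 and 96.6, and the 544 narrower peaks of that list a median of 96.9. Its 25 wider peaks had a median of 99.5. In the 16HBE14o- list 9502 of 9505 peaks had the same width.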
